A study of Sus scrofa with 28 samples.

Results

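The remote zone of the pig heart, the left ventricular muscle outside the infarct, was compared between day 28 and day 3 after myocardial infarction (MI) in animals that had been given recombinant human Agrin (rhAgrin). The samples are the 8 remote zone libraries of rhAgrin animals, among 28 libraries in all, chosen by zone, treatment and day in the sample labels and by no measured value. The day 28 group holds animals 519, 522, 544 and 548, and the day 3 group holds animals 570, 572, 576 and 577, so no animal was sampled on both days. All were wild-type Landrace pigs, labelled as 3 months old, in which a balloon closed the left anterior descending coronary artery for 60 min before reperfusion, and rhAgrin at 33 µg/kg was then given into the coronary artery. The matching saline remote zone libraries (PBS in the labels), 3 on day 28 and 3 on day 3, served only for comparison. Zones were cut apart after tetrazolium staining of the slices, so the labelled health of the remote zone rests on that stain. The day 28 animals were also older at sampling, in a pig that was still growing, so time since infarction and age cannot be told apart. No uninfarcted heart was used here.

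Agrin is a large heparan sulphate proteoglycan of basement membranes that binds the dystroglycan complex of muscle cells, and in mouse hearts it is known for promoting the renewal of cardiac muscle. After an infarct the remote muscle is not cut off from blood, but it takes up added load, is exposed to stress hormones and inflammatory signals, and is known to go through an early phase of stress gene expression and leukocyte entry followed by slower remodelling of matrix, vessels and muscle cells. In a young pig the same weeks also bring growth of the heart, with a decline of fetal growth genes. Each value below is a level in CPM, the gene's counts relative to the size of its library once scaled with edgeR's TMM factors, which line up the bulk of genes between libraries, and a fold change is the log2 of day 28 over day 3 with its standard error (SE). Where 4 values of a group are listed, they stand in the order of the animals above.

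Across 13626 genes no gene differed between day 28 and day 3 past the threshold (Benjamini-Hochberg adjusted p under 0.05, absolute log2 fold change of at least 1, highest count above 30) by edgeR's quasi-likelihood test, a share of 0.0%. The smallest adjusted p was 0.109. At an unadjusted p under 0.05 there were 1752 genes, of which 878 (6.44%) had the higher level on day 28 and 874 (6.41%) had the lower, where 681 of 13626 is the number that the threshold itself gives. With library totals in place of TMM the split was 2123 higher and 183 lower. By DESeq2, the tool of the study, 58 genes (0.426%) were called, 39 higher and 19 lower on day 28, all with an unadjusted p of at most 0.0106 by edgeR. In 513 genes (3.76%) the 4 day 28 levels all lay above the 4 day 3 levels, and in 530 genes (3.89%) they all lay below. Because the main test passed no gene, the levels of each gene are given as measured, and genes were chosen for mention after their values were seen, by the smallest unadjusted p among genes whose groups did not overlap, by the largest difference in CPM among these, and by the smallest unadjusted p within gene lists.

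The libraries held 23.9 to 31.9 M counts on day 28 and 21.7 to 25.1 M on day 3. Transcripts of the mitochondrial genome took 32.0, 32.7, 26.5 and 23.2% of counts on day 28, against 30.3, 30.1, 34.1 and 30.8% on day 3, a difference of -2.71 percentage points (exact 2-sided permutation test, p = 0.371, where 0.0286 is the smallest p that 4 against 4 allows). Correlations of log2 CPM were 0.971 to 0.987 among day 28 libraries, 0.964 to 0.978 among day 3 libraries and 0.963 to 0.98 between the days. Animal 576 of day 3 was more like day 28 libraries (mean r = 0.976) than like its own group (mean r = 0.969), and animal 577 was the least like any other. Transcripts of Y-linked genes were found in 2 of the 4 animals of each day (519, 522, 572 and 576), and on day 28 these were also the 2 libraries with the higher mitochondrial share. Markers of ventricular muscle were high in every library, with summed levels of 39489.7 to 43631 CPM on day 28 and 38508 to 50232 CPM on day 3, of which MYH7, the slow myosin heavy chain, had 28667 to 31583 CPM on day 28 and 28248 to 37348 CPM on day 3.

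Among genes with the higher level on day 28, the clearest was PPP1R16B (chr17:41753697-41866671 in RefSeq Sscrofa11.1), which encodes an endothelial regulatory subunit of protein phosphatase 1. Its level was 28.5, 35.9, 46.7 and 42.3 CPM in the day 28 animals, against 18.99, 12.9, 14.6 and 14.1 CPM in the day 3 animals. The lowest day 28 animal stood well above the highest day 3 animal, and the ratio was 2.53 (log2 fold change 1.34 ± 0.17, adjusted p = 0.109; DESeq2 adjusted p = 1.70e-08). MARCKS (chr1:79789796-79795895), a substrate of protein kinase C that ties actin to the membrane, had 70.5, 92.3, 77.7 and 91.3 CPM on day 28, against 43.1, 45.5, 55.8 and 48.5 CPM on day 3 (log2 fold change 0.78 ± 0.12, adjusted p = 0.138). PRELP (chr9:64190978-64207008), a leucine-rich proteoglycan of the matrix, had 137, 138, 130.1 and 183 CPM on day 28, against 84.0, 88.1, 92.7 and 82.5 CPM on day 3 (log2 fold change 0.76 ± 0.12, adjusted p = 0.138). In both genes the 4 day 3 animals lay close together and below every day 28 animal. FAIM2 (chr5:15779329-15813029), an inhibitor of Fas-mediated cell death, had low levels of 7.11, 7.41, 5.45 and 3.90 CPM on day 28, against 1.66, 0.475, 0.338 and 0.849 CPM on day 3, a ratio of 7.13 with a wide error (log2 fold change 2.83 ± 0.43, adjusted p = 0.138).

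ADCY7, an adenylyl cyclase, had 14.7, 17.1, 19.4 and 18.0 CPM on day 28, against 8.85, 8.86, 11.3 and 7.48 CPM on day 3 (log2 fold change 0.92 ± 0.14, adjusted p = 0.138). MS4A2, the beta chain of the high-affinity IgE receptor of mast cells, had 12.2, 10, 8.17 and 10.1 CPM on day 28, against 3.68, 5.14, 5.37 and 3.07 CPM on day 3 (log2 fold change 1.23 ± 0.20, adjusted p = 0.173). OLFML2A, an olfactomedin-like matrix protein, had 73.9 to 92.9 CPM on day 28 and 43.6 to 60.6 CPM on day 3. The groups did not overlap in any of these genes, nor in FAM8A1 (36.0 to 37.4 CPM on day 28 and 25.2 to 29.8 CPM on day 3), in the filamin-binding protein RFLNB (15.8 to 25.3 CPM on day 28 and 6.30 to 11.99 CPM on day 3), in the ubiquitin ligase TRIM25 (17.6 to 19.4 CPM on day 28 and 11.8 to 14.4 CPM on day 3), or in OPCML, a cell adhesion protein at 1.89 to 3.52 CPM on day 28 and 0.145 to 0.988 CPM on day 3. DESeq2 gave adjusted p-values of 3.08e-05 for MS4A2, 5.29e-05 for OPCML and 1.95e-04 for RFLNB, against 0.173, 0.184 and 0.184 by edgeR.

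The clearest of the genes with the lower level on day 28 was RAI14 (chr16:20268728-20435846), an actin-binding ankyrin repeat protein, whose levels were 9.26, 9.69, 8.72 and 9.35 CPM in the day 28 animals, against 16.3, 17.2, 16.6 and 13.98 CPM in the day 3 animals (log2 fold change -0.79 ± 0.10, adjusted p = 0.109). AKR1A1 (chr6:165811245-165825168), an aldehyde reductase, had 20.2, 20.5, 22.7 and 22.6 CPM on day 28, against 34.1, 42.4, 42.4 and 32.9 CPM on day 3 (log2 fold change -0.82 ± 0.11, adjusted p = 0.109). In both, the day 28 animals kept within a narrow band below the lowest day 3 animal. HIF3A (chr6:52342893-52376339), a member of the hypoxia-inducible factor family, had 10.5, 11.03, 10.8 and 12.5 CPM on day 28, against 30.9, 29.3, 20.2 and 16.7 CPM on day 3 (log2 fold change -1.11 ± 0.19, adjusted p = 0.184), and its saline fold change was -1.55 ± 0.41. ANAPC7, a subunit of the anaphase-promoting complex, had 55.3 to 68.9 CPM on day 28 and 86.8 to 100.0 CPM on day 3, and POPDC2, a cAMP-binding membrane protein of heart muscle, had 81.3 to 106 CPM on day 28 and 128 to 153 CPM on day 3. WFDC1 (60.0 to 70.2 CPM on day 28 and 85.5 to 122 CPM on day 3), the hydrolase ABHD11 (40.7 to 44.2 CPM on day 28 and 53.5 to 70.9 CPM on day 3), USP54 (13.9 to 18.0 CPM on day 28 and 21.9 to 24.1 CPM on day 3), the histone variant MACROH2A2 (10.3 to 11.5 CPM on day 28 and 16.2 to 24.5 CPM on day 3) and the ephrin ligand EFNA5 (12.3 to 14.9 CPM on day 28 and 18.1 to 21.7 CPM on day 3) were likewise lower in every day 28 animal than in any day 3 animal. One gene without a symbol, ENSSSCG00000002825, had 0.179, 0.592, 0.237 and 0.111 CPM on day 28, against 9.52, 6.83, 3.72 and 2.30 CPM on day 3 (log2 fold change -4.26 ± 0.59, adjusted p = 0.138), with all day 28 animals below 1 CPM.

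**Figure D1:**
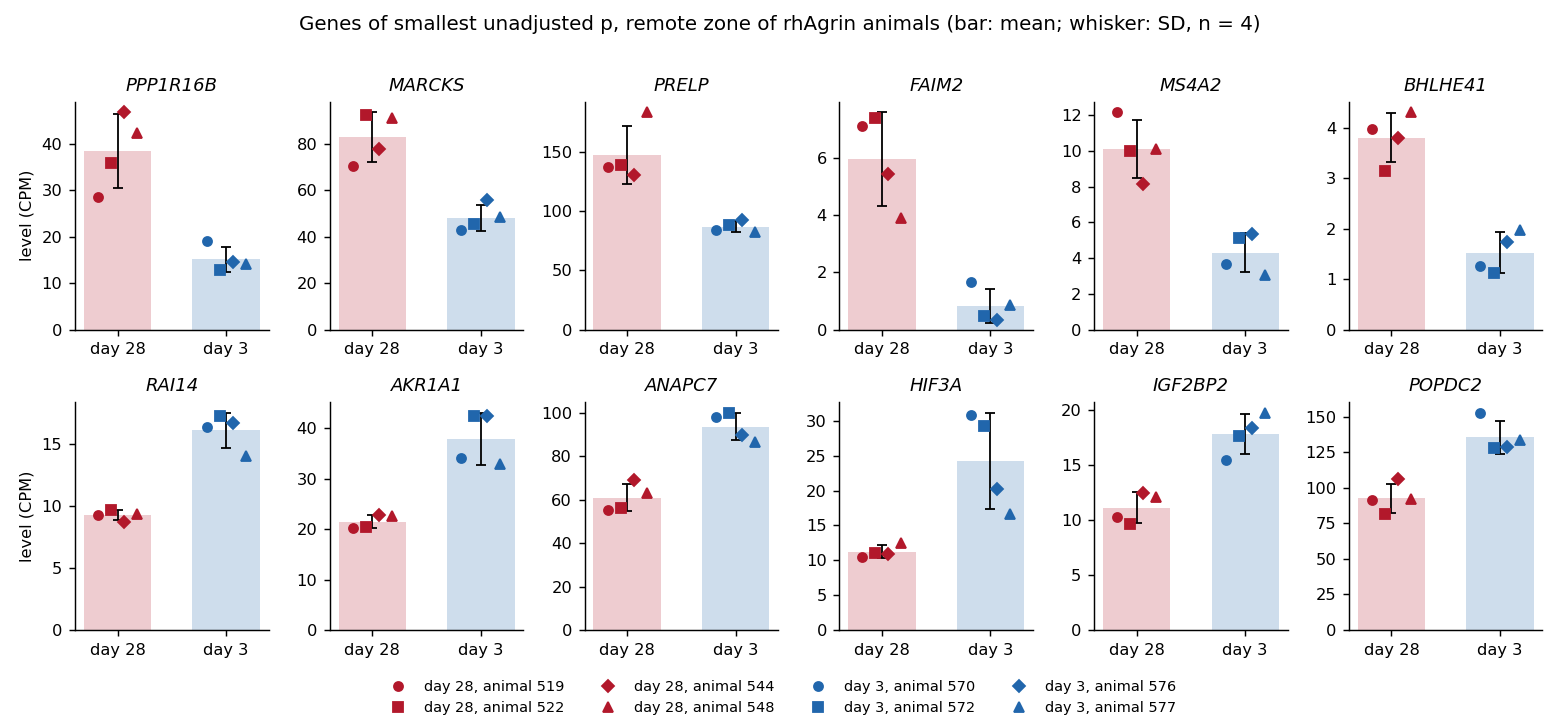
Levels in CPM (counts relative to library size) of 6 genes with the higher and 6 with the lower level on day 28, in the remote zone of rhAgrin animals. Points are single animals, bars are means and whiskers are SD (n = 4), and in every panel the day 28 points lie wholly above or wholly below the day 3 points.

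Several abundant genes without overlap of the groups were named for their difference in CPM. TPM1, the tropomyosin of the thin filament, had 3503, 3602, 3896 and 3774 CPM in the day 28 animals, against 4732, 4697, 4455 and 5535 CPM in the day 3 animals (log2 fold change -0.39 ± 0.10, adjusted p = 0.273). RPS2, a protein of the small ribosomal subunit, had 1118, 1075, 1288 and 1255 CPM on day 28, against 1619, 1597, 1458 and 1726 CPM on day 3, and RPLP0, of the large subunit, had 691, 748, 806 and 777 CPM on day 28, against 1058, 997, 919 and 873 CPM on day 3. SLC25A6, an ADP/ATP carrier of the inner mitochondrial membrane, had 699 to 820.3 CPM on day 28 and 846 to 1108 CPM on day 3, and NREP, a small protein of regenerating tissue, had 218 to 295 CPM on day 28 and 381 to 739 CPM on day 3. Day 28 was lower in each of the 5, and NREP had the largest ratio of them (log2 fold change -1.07 ± 0.21, adjusted p = 0.2; DESeq2 adjusted p = 2.43e-04). The mitochondrially encoded complex I subunit ND6 had 13965, 14566, 7919 and 7183 CPM on day 28, against 16708, 16603, 15898 and 14612 CPM on day 3, so that its gap came from animals 544 and 548, those of the lowest mitochondrial share.

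With the higher level on day 28, SPTBN1, the beta spectrin of the muscle membrane skeleton, had 1255, 1195, 1177 and 1200.0 CPM on day 28, against 1018, 959.5, 1006 and 1006 CPM on day 3 (log2 fold change 0.28 ± 0.077, adjusted p = 0.273). RRAD, a small GTPase that restrains the L-type calcium channel, had 382, 492, 619 and 356 CPM on day 28, against 311, 318, 243 and 339 CPM on day 3 (log2 fold change 0.61 ± 0.18, adjusted p = 0.279). CD36, which carries fatty acids into muscle, had 437 to 485 CPM on day 28 and 303 to 418 CPM on day 3, and PPP1R3C, which targets protein phosphatase 1 to glycogen, had 369.8 to 408 CPM on day 28 and 281 to 337 CPM on day 3. These 4 genes were higher in every day 28 animal, by less than 1 on the log2 scale. RRAD and PPP1R3C also had positive fold changes in saline animals (1.36 ± 0.33 and 0.95 ± 0.34).

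Gene lists were read by how many members lay in each direction, beside the shares over all genes given above. The 60 lists hold 1219 symbols, of which 1003 were tested, and no member passed the adjusted p by edgeR, while 28 did by DESeq2. The median fold change of all genes was -6.2e-05 with TMM scaling and 0.14 with library totals alone. Under library totals 34 of 60 list medians kept their sign and 26 turned from negative to positive, among them those of collagens and matrix, sarcomere, calcium handling, oxidative phosphorylation, the mitochondrial ribosome, the clock, growth genes and the Agrin and dystroglycan list. The plot of gene lists shows the members of 15 lists with the rhAgrin and saline medians.

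**Figure D2:**
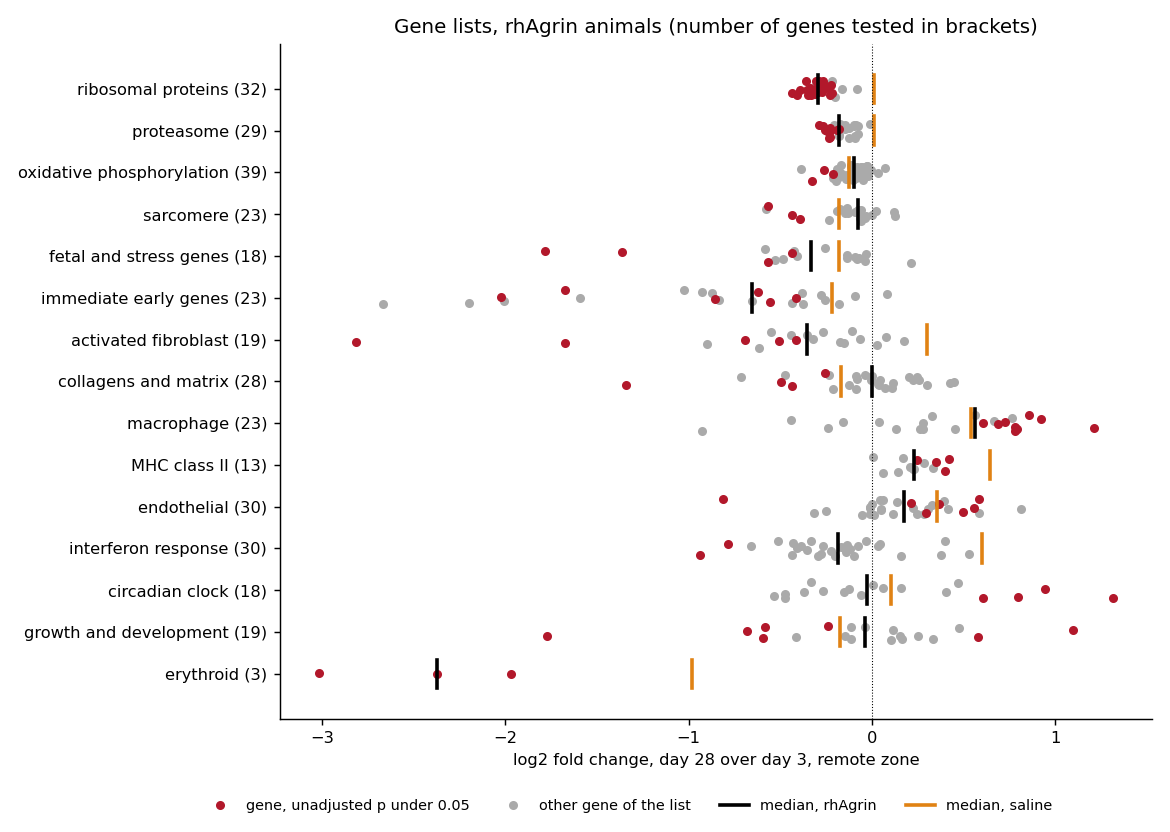
Log2 fold changes (day 28 over day 3) of the genes of 15 lists in the remote zone of rhAgrin animals, with red for an unadjusted p under 0.05 and grey for the rest. Black bars are list medians in rhAgrin animals and orange bars are those in saline animals, and the ribosomal protein genes lie together below 0, with a median of -0.29, against a saline median of 0.013.

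Ribosomal protein genes, the structural parts of the machine that makes protein, were lower in level on day 28 throughout the list. All 32 tested had a negative fold change, with a median of -0.29 and a range of -0.43 to -0.085. An unadjusted p under 0.05 was reached by 27 of 32 (84.4%, against 6.41% of all genes), and the groups did not overlap in 14 (43.8%, against 3.89%). Their summed level was 9699 to 10561 CPM on day 28 and 11049 to 13827 CPM on day 3. RPSA had 226, 253, 251 and 252 CPM on day 28, against 329.5, 346, 295 and 331 CPM on day 3 (log2 fold change -0.41 ± 0.083, adjusted p = 0.233), and RPLP1, of the ribosomal stalk, had 405 to 417 CPM on day 28 and 438 to 599.9 CPM on day 3. The day 3 animal nearest to day 28 was 576 in both. Leaving out 1 animal at a time, all 32 stayed negative, and the count at an unadjusted p under 0.05 was 15 without 572, 16 without 519, 18 without 570 and 20 to 29 otherwise. It was 4 within animals with Y-linked transcripts (31 of 32 negative) and 15 within those without. In saline animals the list median was 0.013, with 15 of 32 negative, and no test of the difference was passed by a member by edgeR. Under library totals 31 of 32 were still negative (median -0.16), with 2 at an unadjusted p under 0.05. Ribosomal protein genes have many near-identical pseudogenes, so the split of reads among them is uncertain.

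The proteasome, which degrades tagged proteins, showed the same side. All 29 tested subunit genes had a negative fold change (median -0.18). Of these, 11 had an unadjusted p under 0.05 (37.9%, against 6.41% of all genes) and 11 were without overlap of the groups (37.9%, against 3.89%). PSMA7 had 162, 162, 152 and 143 CPM on day 28, against 184, 199.5, 171 and 179 CPM on day 3 (log2 fold change -0.24 ± 0.082, adjusted p = 0.299), and PSMA2 had 37.8 to 43.8 CPM on day 28 and 47.6 to 52.0 CPM on day 3. The count of 11 was 5 without animal 548 and 6 without 572. The differences were small, with fold changes of -0.25 ± 0.084 for PSMC3 and -0.23 ± 0.077 for PSMD13, but the animals of a day varied little. The summed level was 1638 to 1872 CPM on day 28 and 1921 to 2134 CPM on day 3. In saline animals the median was 0.012. With library totals the list median came to -0.046, against 0.14 for all genes, with 19 of 29 members negative and none at an unadjusted p under 0.05. The counts of this list therefore rest on the scaling, while its median lay below that of all genes under both scalings.

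The 3 tested genes of red blood cells had a median fold change of -2.38. HBB, the beta chain of haemoglobin, had 50.9, 90.3, 29.2 and 53.8 CPM in the day 28 animals, against 223, 432, 158 and 63.9 CPM in the day 3 animals (log2 fold change -1.97 ± 0.55, adjusted p = 0.273). ALAS2, the erythroid enzyme of haem synthesis, had 1.07, 1.43, 0.592 and 1.37 CPM on day 28, against 6.96, 11.4, 3.62 and 1.37 CPM on day 3, and HBM, a minor globin, had 0.0715, 0.280, 0.0789 and 0.223 CPM on day 28, against 1.35, 2.25, 1.26 and 0.687 CPM on day 3. Day 28 animals all lay low, and of the day 3 animals 572 was highest and 577 lay within the day 28 range for HBB and ALAS2. By DESeq2 the adjusted p-values were 1.89e-04 for HBM, 0.00346 for ALAS2 and 0.0597 for HBB. All 3 were negative within the animals with Y-linked transcripts (median -2.59) and within those without (median -2.07), and the saline median was -0.98. In bulk tissue, fewer cells of a type and less RNA per cell cannot be told apart, and the amount of blood left in the pieces was not tested.

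Immediate early genes, which switch on within minutes of stress or stretch, had a negative fold change in 22 of 23 tested (median -0.65), 6 of them at an unadjusted p under 0.05 (26.1%, against 6.41% of all genes). NR4A1, an orphan nuclear receptor induced by stress, had 82.9, 79.9, 45.9 and 44.0 CPM in the day 28 animals, against 710.3, 214, 53.1 and 38.7 CPM in the day 3 animals. ATF3, a stress transcription factor, had 26.3, 15.9, 3.20 and 6.16 CPM on day 28, against 126, 24.4, 49.0 and 11.11 CPM on day 3, and CCN1, a matricellular protein, had 51.4, 29.8, 45.8 and 35.8 CPM on day 28, against 318, 112, 58.4 and 31.8 CPM on day 3. Animal 570 of day 3 was far above all others, and 577 was as low as the day 28 animals. FOS showed it most plainly, with 28.1, 41.3, 4.42 and 12.1 CPM on day 28, against 221, 19.3, 10.7 and 8.85 CPM on day 3, and without animal 570 its fold change was 0.73. Milder and more even were NR4A2 (20.8 to 22.9 CPM on day 28 and 22.5 to 51.3 CPM on day 3), MYC (18.6 to 21.7 CPM on day 28 and 20.2 to 43.1 CPM on day 3) and IER5 (39.1 to 71.0 CPM on day 28 and 60.5 to 169 CPM on day 3). Without animal 570 the list median was -0.082, with 12 of 23 negative, so the list rests on that animal. Without 570 there were 1 lower and 2 higher at that p, and the count of 6 lower was 2 without 548, 3 without 544, and 10 without 577. Within animals with Y-linked transcripts 12 of 24 were positive (median -0.0094), with 4 higher and 2 lower at that p. Within those without, 0 of 23 were positive (median -1.40). 

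**Figure D3:**
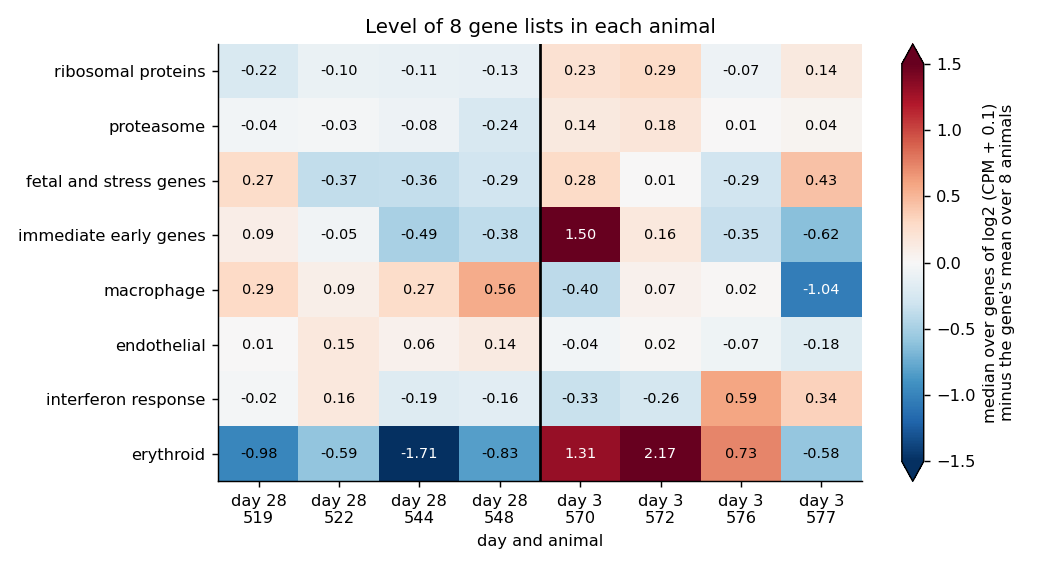
Level of 8 gene lists in each of the 8 animals, as the median over the genes of a list of log2(CPM + 0.1) minus the gene's own mean over the animals. Immediate early genes stand out in animal 570, macrophage markers are lowest in animal 577 (-1.04), and ribosomal protein genes are below 0 in all 4 day 28 animals and in animal 576.

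The glucocorticoid list had 6 positive and 14 negative of 20 (median -0.19) and the fasting list 8 and 11 of 19 (median -0.04). FKBP5, a glucocorticoid-induced co-chaperone, had 169, 63.6, 54.4 and 72.7 CPM on day 28, against 274, 282, 69.98 and 38.8 CPM on day 3, and PDK4, the kinase that turns off glucose oxidation, had 562, 281, 199.5 and 103.3 CPM on day 28, against 1032, 1154, 273 and 215 CPM on day 3. Animals 519, 570 and 572 were high in both genes and 576 and 577 were not. The fold changes were -0.89 ± 0.65 and -1.22 ± 0.67, within 2 standard errors of 0. PER1, a clock gene that glucocorticoids also induce, was highest in the same 3 animals with 365, 317, 233 and 289.9 CPM on day 28, against 562, 508, 238 and 252 CPM on day 3. Times of day and of last feeding are not given in the sources used here, and their part was not tested.

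Macrophage markers had a positive fold change in 19 of 23 tested (median 0.56), and 9 reached an unadjusted p under 0.05 on that side (39.1%, against 6.44% of all genes). The other 4 were negative, down to -0.93, with 0 at that p. Markers of this list named below all had a positive fold change. C1QA, a chain of the first complement component made by resident macrophages, had 42.8, 33.2, 49.5 and 59.5 CPM in the day 28 animals, against 18.3, 30.7, 38.7 and 9.98 CPM in the day 3 animals (log2 fold change 0.92 ± 0.37, adjusted p = 0.349). C1QC had 83.5, 76.0, 95.5 and 109 CPM on day 28, against 42.8, 68.4, 76.1 and 22.8 CPM on day 3, and C1QB had 68.5 to 104 CPM on day 28 and 21.1 to 72.0 CPM on day 3. The lysosomal marker CD68 had 7.36, 8.04, 10.3 and 10.6 CPM on day 28, against 4.85, 6.57, 6.04 and 2.59 CPM on day 3, without overlap between the days, and GPNMB, of lipid-laden macrophages, had 2.43 to 8.40 CPM on day 28 and 1.16 to 2.87 CPM on day 3. Animal 577 was lowest in C1QA, C1QC and CD68, and 576 was higher than at least 1 day 28 animal in C1QA. F13A1, a coagulation factor chain of resident macrophages, had 8.22 to 13.2 CPM on day 28 and 4.28 to 10.8 CPM on day 3, and the scavenger receptor CD163 had 72.3, 31.9, 43.3 and 44.6 CPM on day 28, against 38.2, 85.8, 43.8 and 19.3 CPM on day 3 (log2 fold change 0.038 ± 0.41, adjusted p = 0.976). The summed level was 411 to 603 CPM on day 28 and 192 to 465 CPM on day 3.

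The count of 9 was 2 without animal 548 (with 2 lower) or 570, 3 without 544, 4 without 519, 11 without 572, and 0 within the animals with Y-linked transcripts. The macrophage median was 0.36 without animal 577 and 0.28 without animal 548. It was 0.026 within the animals with Y-linked transcripts and 1.11 within those without, so the difference lay in 544 and 548 against 570 and 577. Saline animals had a median of 0.54. Of single genes called by DESeq2, GP91-PHOX, the catalytic subunit of the phagocyte NADPH oxidase, had 10.7, 9.72, 10.02 and 11.5 CPM on day 28, against 3.82, 6.52, 6.57 and 3.03 CPM on day 3 (DESeq2 adjusted p = 0.00574). CD209, a C-type lectin of macrophages and dendritic cells, had 2.72, 2.87, 4.74 and 4.75 CPM on day 28, against 1.08, 0.518, 0.387 and 1.66 CPM on day 3, and CX3CR1, the fractalkine receptor, had 1.79, 6.10, 7.58 and 6.94 CPM on day 28, against 0.449, 0.907, 2.37 and 2.30 CPM on day 3. PTX3, an acute-phase pentraxin, lay the other way with 2.04, 1.12, 1.81 and 1.82 CPM on day 28, against 5.52, 4.41, 2.08 and 3.07 CPM on day 3 (DESeq2 adjusted p = 0.0483; saline fold change -1.29 ± 0.53).

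Genes of MHC class II antigen presentation were all on the positive side, 13 of 13 (median 0.23). Of these, 4 had an unadjusted p under 0.05 (30.8%, against 6.44% of all genes). Without animal 522 there were 11 of 13 positive (median 0.15) and none at that p, there were 2 without 544 or 577, and 6 without 519. SLA-DMB, which loads peptide onto class II molecules, had 22.8, 28.6, 23.8 and 24.0 CPM on day 28, against 19.5, 21.5, 20.2 and 12.8 CPM on day 3, and SLA-DQB1 had 75.2 to 86.9 CPM on day 28 and 60.2 to 74.9 CPM on day 3. SLA-DMA (16.6 to 22.3 CPM on day 28 and 12 to 17.2 CPM on day 3) and the protease CTSS (27.2 to 30.7 CPM on day 28 and 16.9 to 29.5 CPM on day 3) overlapped between the days. Genes of this highly polymorphic family can share reads, so their levels are uncertain. Among lymphocyte markers 12 of 14 were positive (median 0.54), but only CD4 reached an unadjusted p under 0.05, with 3.67 to 5.79 CPM on day 28 and 2.79 to 3.87 CPM on day 3. The summed lymphocyte level was 37.6 to 71.3 CPM on day 28 and 41.0 to 56.3 CPM on day 3, which overlapped. CSF1, the growth factor of macrophages, had 36.7, 43.6, 39.7 and 45.2 CPM on day 28, against 29.4, 30.8, 33.8 and 34.1 CPM on day 3 (log2 fold change 0.37 ± 0.092, adjusted p = 0.273).

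Endothelial markers were positive in 22 of 30 (median 0.18), with 6 at an unadjusted p under 0.05 on that side and 1 on the other. Of all genes, 6.44% and 6.41% reached that p on these sides. The 6 became 3 without animal 548, and 4 without 522 or 544. The other 8 members were negative, down to -0.81. ERG, TEK, TIE1 and PECAM1, named next, all had a positive fold change, so they do not stand for these 8. ERG, a transcription factor of endothelial identity, had 29.1, 29.6, 25.1 and 27.5 CPM in the day 28 animals, against 20.7, 20.2, 20.7 and 17.4 CPM in the day 3 animals (log2 fold change 0.50 ± 0.094, adjusted p = 0.191; saline 0.69 ± 0.24). TEK, the angiopoietin receptor, had 42.9, 43.8, 43.6 and 45.9 CPM on day 28, against 34.7, 26.2, 37.5 and 21.4 CPM on day 3, its related receptor TIE1 had 69.4 to 82.8 CPM on day 28 and 54.3 to 62.2 CPM on day 3, and PECAM1, a junction protein, had 254 to 286 CPM on day 28 and 173 to 255 CPM on day 3. The day 28 animals were close to each other in TEK, and the day 3 animals were spread more widely below them. Markers of pericytes and smooth muscle were positive in 9 and negative in 7 of 16 (median 0.088), with 2 higher and 1 lower at an unadjusted p under 0.05. These shares were 12.5% and 6.25%, against 6.44% and 6.41% of all genes. In saline animals 3 of the 16 were positive and 13 negative. NOTCH3, the Notch receptor of mural cells, had 92.6, 88.1, 103.4 and 96.3 CPM on day 28, against 60.1, 68.6, 72.5 and 46.4 CPM on day 3 (log2 fold change 0.62 ± 0.13, adjusted p = 0.243), and the pericyte marker RGS5 had 317 to 371 CPM on day 28 and 178 to 310.3 CPM on day 3. CNN1, a marker of contractile smooth muscle, had the lower mean on day 28, with 98.2, 69.5, 77.5 and 63.9 CPM on day 28, against 115, 69.0, 107 and 208 CPM on day 3, where animal 577 was highest. The summed endothelial level was 1846 to 1989.8 CPM on day 28 and 1618 to 1879 CPM on day 3. PPP1R16B, at the head of the genes higher on day 28, is also chiefly an endothelial gene and was in no list.

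Activated fibroblast genes were negative in 16 of 19 (median -0.36), with 5 at an unadjusted p under 0.05 (26.3%, against 6.41% of all genes). That count was 1 without animal 522, 3 without 544 or 577 and 8 without 576, and within animals with Y-linked transcripts 13 of 19 were negative (median -0.17). THBS4, a matrix glycoprotein of loaded muscle and tendon, had 141, 133, 172 and 187 CPM in the day 28 animals, against 209, 227, 190.4 and 219 CPM in the day 3 animals (log2 fold change -0.42 ± 0.12, adjusted p = 0.273). Every day 28 animal was below every day 3 animal, and in saline animals its fold change was 1.04 ± 0.22. The difference between the treatments in the day effect of THBS4 was -1.45, with an adjusted p of 0.998 by edgeR and 0.0103 by DESeq2. TIMP1, an inhibitor of matrix proteases, had 12.3, 10.8, 11.96 and 15.1 CPM on day 28, against 29.5, 18.3, 11.5 and 21.6 CPM on day 3, and TNC, a matrix protein of injured tissue, had 5.04, 4.14, 5.53 and 9.28 CPM on day 28, against 11.2, 17.3, 5.75 and 26.3 CPM on day 3. SFRP2, a secreted Wnt binding protein, was low throughout and highest in animal 577, with 0.107, 0.125, 0.118 and 0.779 CPM on day 28, against 1.03, 1.08, 0.0483 and 5.74 CPM on day 3. Animal 576 lay within the day 28 range in TIMP1 and below it in SFRP2. The saline list median was 0.30. Genes named above in this paragraph all had a negative fold change, so they do not stand for the 3 positive members. The highest of these was ACTA2, the smooth muscle actin (mean 74.5 CPM on day 28 and 66.0 CPM on day 3, log2 fold change 0.17 ± 0.15, adjusted p = 0.658).

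Fibrillar collagens had no shared direction. COL1A1 had 1008, 925, 929.8 and 2145 CPM on day 28, against 1579.8, 1826, 982 and 1505 CPM on day 3 (log2 fold change -0.23 ± 0.30, adjusted p = 0.777), and COL3A1 had 2339.5, 2733, 2284 and 3908 CPM on day 28, against 2826, 2852, 2378 and 1111 CPM on day 3 (log2 fold change 0.30 ± 0.29, adjusted p = 0.701). Animal 548 was highest of day 28 in both, and animal 577 was lowest of all in COL3A1. POSTN, a matricellular protein of activated fibroblasts, had 46.1 to 75.0 CPM on day 28 and 54.2 to 105 CPM on day 3. The matrix list had a median of -0.00081, with 14 of 28 positive, and the 4 at an unadjusted p under 0.05 (14.3%, against 6.41% of all genes) were all negative. Beside TNC these were the basement membrane chains COL4A1 (460.3 to 544 CPM on day 28 and 504 to 701 CPM on day 3) and COL18A1 (335 to 446 CPM on day 28 and 347 to 660.1 CPM on day 3), and COL12A1 (23.8 to 39.5 CPM on day 28 and 29.99 to 54.1 CPM on day 3). Enzymes that process and crosslink collagen were positive in 7 and negative in 13 of 20 (median -0.13), with 4 higher and 1 lower at an unadjusted p under 0.05. The higher ones included the lysyl hydroxylase PLOD2 (19.1 to 24.6 CPM on day 28 and 16.0 to 19.5 CPM on day 3), the procollagen peptidase ADAMTS2 (50.5 to 70.3 CPM on day 28 and 27.0 to 50.6 CPM on day 3) and BMP1 (60.9 to 70.8 CPM on day 28 and 48.9 to 56.8 CPM on day 3). All of these differences were below 1 on the log2 scale, except that of TNC (-1.34 ± 0.43).

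In cardiac muscle, genes of the fetal and stress program were negative in 17 of 18 (median -0.33), with 4 at an unadjusted p under 0.05 (22.2%, against 6.41% of all genes). The list was not even across animals: without animal 577 the median was -0.15 with 0 such genes, there was 1 each without 522, 548 or 572, 2 without 544, and 6 and 8 without 576 and 519. Within animals with Y-linked transcripts 11 of 18 were positive (median 0.025), and within those without none was (median -0.70). TNNI1, the slow skeletal troponin I of the fetal heart, had 6.18, 0.966, 0.434 and 1.71 CPM in the day 28 animals, against 5.75, 14.6, 5.22 and 6.51 CPM in the day 3 animals (log2 fold change -1.78 ± 0.70, adjusted p = 0.342; saline -2.99 ± 1.00). MYL4, the atrial and fetal light chain, had 9.62, 2.83, 1.85 and 4.27 CPM on day 28, against 14.5, 12.5, 3.38 and 17.3 CPM on day 3, and ACTC1, cardiac actin, had 3695 to 5863 CPM on day 28 and 4739 to 8713 CPM on day 3. Animal 519 of day 28 was within the day 3 range for TNNI1, and 519 and 548 were within it for MYL4. CSRP3, a stretch sensor of the Z-disc, had 426 to 598 CPM on day 28 and 495 to 780.5 CPM on day 3. NPPB, which encodes B-type natriuretic peptide, had 368, 19.1, 9.71 and 32.9 CPM on day 28, against 177, 95.1, 23.6 and 156 CPM on day 3 (log2 fold change -0.07 ± 1.19, adjusted p = 0.985), where animal 519 alone stood high on day 28. Sarcomere genes were negative in 20 of 23, but their median of -0.076 turned to 0.06 under library totals, and calcium handling genes had 7 of 16 positive and none at an unadjusted p under 0.05.

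Genes of energy supply differed by little between the days. Nuclear genes of oxidative phosphorylation were negative in 37 of 39, with a median of -0.096 that became 0.041 under library totals. COX8A, a subunit of cytochrome oxidase, had 70.3, 75.6, 81.3 and 69.3 CPM on day 28, against 83.7, 94.6, 86.8 and 107 CPM on day 3 (log2 fold change -0.33 ± 0.099, adjusted p = 0.282). COX7B had 194 to 212 CPM on day 28 and 219.8 to 253 CPM on day 3, and NDUFA2, of complex I, had 43.0 to 49.5 CPM on day 28 and 49.7 to 57.5 CPM on day 3. Mitochondrial ribosome genes were negative in 26 of 31 (median -0.10, and 0.03 under library totals), with MRPL12 at 100.2 to 114 CPM on day 28 and 119.6 to 128 CPM on day 3 and MRPL24 at 43.6 to 49.9 CPM on day 28 and 52.4 to 59.4 CPM on day 3. IDH2, of the citric acid cycle, had 827 to 975 CPM on day 28 and 986 to 1134 CPM on day 3, and ENO1, of glycolysis, had 106 to 119 CPM on day 28 and 124 to 139.5 CPM on day 3. Fatty acid oxidation genes were split, 10 positive and 13 negative. For glycogen, the targeting subunits PPP1R3C and PPP1R3D were higher on day 28, PPP1R3D at 16.3 to 20.9 CPM on day 28 and 10.2 to 14.3 CPM on day 3, while PHKG1, the muscle phosphorylase kinase that starts glycogen breakdown, was lower at 14.8 to 18.5 CPM on day 28 and 18.9 to 25.7 CPM on day 3, without overlap in any of these 3 genes. Antioxidant genes of the NRF2 list were positive in 8 and negative in 12 of 20, with 1 higher (SLC7A11) and 3 lower at an unadjusted p under 0.05 (6.44% and 6.41% of all genes). PRDX1, a peroxide-removing enzyme, had 33.1, 35.7, 32.1 and 28.0 CPM on day 28, against 39.5, 42.7, 45.0 and 44.4 CPM on day 3, where saline animals had a fold change of 0.27 ± 0.11, NQO1 had 12.7 to 15.1 CPM on day 28 and 16.2 to 19.8 CPM on day 3 and 0.30 ± 0.13 in saline animals, and SOD1 had 38.6 to 43.3 CPM on day 28 and 42.9 to 51.7 CPM on day 3. Lipid and sterol genes were positive in 10 and negative in 13 of 23 (median -0.055), with 1 higher (MYLIP) and 3 lower at that p. The lower ones were IDI1 at 6.20 to 9.90 CPM on day 28 and 10.2 to 13.5 CPM on day 3, SQLE at 6.26 to 9.09 CPM on day 28 and 8.37 to 18.7 CPM on day 3 and the sterol carrier STARD4 at 3.79 to 4.42 CPM on day 28 and 4.65 to 8.38 CPM on day 3.

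Genes of the daily clock had 9 of 18 positive (median -0.027), with 4 higher (22.2%, against 6.44% of all genes) and none lower at an unadjusted p under 0.05. In mammals the clock proteins CLOCK and BMAL1 bind the E-box and drive repressors such as PER1 and PER2 and output factors such as DBP and TEF. BHLHE41, a repressor that acts on the same sites, had 3.97, 3.15, 3.79 and 4.30 CPM in the day 28 animals, against 1.26, 1.12, 1.74 and 1.98 CPM in the day 3 animals (log2 fold change 1.31 ± 0.22, adjusted p = 0.184). The groups did not overlap, and in saline animals the fold change was 1.31 ± 0.35. PER2 had 15.5, 21.0, 7.58 and 13.99 CPM on day 28, against 7.54, 9.03, 8.51 and 5.13 CPM on day 3 (log2 fold change 0.95 ± 0.29, adjusted p = 0.285; saline 1.56 ± 0.39). DBP had 5.65, 7.57, 4.26 and 8.46 CPM on day 28, against 2.42, 3.02, 4.50 and 5.01 CPM on day 3 (log2 fold change 0.79 ± 0.28, adjusted p = 0.317; saline 1.69 ± 0.38), and TEF had 71.0, 65.6, 33.9 and 62.7 CPM on day 28, against 39.7, 43.1, 40.6 and 30.1 CPM on day 3 (log2 fold change 0.60 ± 0.22, adjusted p = 0.322; saline 0.93 ± 0.27). Animal 544 lay within the day 3 range for PER2, DBP and TEF. NR1D1, a repressor that oscillates strongly, had 6.13 to 11.9 CPM on day 28 and 5.37 to 8.12 CPM on day 3. Hours of tissue collection are not given in the sources used here, so a difference in hour was not tested.

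The 250 bases before the annotated gene start were read from RefSeq Sscrofa11.1 for the tested clock genes and searched for the E-box. The motif CACGTG, which reads the same on both strands, was in 2 of 18 windows, and in 1273 of 20664 windows of all protein-coding genes (6.16%). Among the clock genes higher on day 28, the windows of BHLHE41, PER2 and DBP held no copy, and that of TEF is not reported here. The window of PER1 (chr12:53376724-53376973, minus strand), chosen after its values were seen, is printed 5′ to 3′ on the strand of the gene to show where the motif, in capitals, lies, 93 bases before the start.
PER1: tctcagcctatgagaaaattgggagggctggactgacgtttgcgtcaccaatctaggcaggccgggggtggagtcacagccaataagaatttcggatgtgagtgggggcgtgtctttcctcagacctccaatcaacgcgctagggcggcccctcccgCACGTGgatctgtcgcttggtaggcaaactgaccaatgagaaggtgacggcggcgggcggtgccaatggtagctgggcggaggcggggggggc
The fold change of PER1 was -0.37 ± 0.29, with the highest levels in animals 519, 570 and 572.

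Growth and developmental genes were split, with 9 positive and 10 negative of 19 tested, and those named first below were lower on day 28. IGF2BP2, an RNA-binding protein of fetal tissues that binds the IGF2 message, had 10.2, 9.62, 12.5 and 12.1 CPM in the day 28 animals, against 15.4, 17.6, 18.3 and 19.7 CPM in the day 3 animals (log2 fold change -0.68 ± 0.12, adjusted p = 0.184). Its relative IGF2BP3 had 2.68, 2.62, 2.72 and 2.45 CPM on day 28, against 3.77, 3.46, 4.35 and 4.12 CPM on day 3 (log2 fold change -0.58 ± 0.15, adjusted p = 0.273), and the imprinted gene MEST had 3.04 to 3.79 CPM on day 28 and 4.41 to 6.26 CPM on day 3. In all 3 genes every day 28 animal was lower. DLK1, an imprinted inhibitor of differentiation, had 0.786, 3.52, 4.38 and 5.53 CPM on day 28, against 6.91, 21.1, 16.5 and 4.00 CPM on day 3, with animal 577 among the day 28 animals, and THRB, a thyroid hormone receptor, had 41.5 to 43.0 CPM on day 28 and 47.9 to 51.6 CPM on day 3. The list had 5 lower (26.3%, against 6.41% of all genes) and 2 higher (10.5%, against 6.44%) at an unadjusted p under 0.05 among 19 tested (median -0.039). The levels above are those of genes with a negative fold change, so they do not stand for the whole list. Of genes outside this list, KRT8, a keratin of simple epithelia, had 6.08, 10.3, 1.89 and 4.97 CPM on day 28, against 27.6, 29.4, 16.9 and 64.0 CPM on day 3 (log2 fold change -2.56 ± 0.53, adjusted p = 0.233; DESeq2 adjusted p = 0.00532). KRT8 is in the list of mesothelial and epicardial markers, which had 3 positive and 3 negative of 6 (median 0.015). INHA, the inhibin alpha chain, had 67.9, 69.0, 66.2 and 73.2 CPM on day 28, against 97.8, 149, 108 and 204 CPM on day 3. HAND1, a transcription factor of the left ventricle, had 44.3, 36.8, 52.7 and 48.5 CPM on day 28, against 29.9, 30.4, 17.0 and 12.1 CPM on day 3 (DESeq2 adjusted p = 0.028). The cell cycle list had no member at an unadjusted p under 0.05 among 28 tested.

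For the system that Agrin acts on, the muscle's own gene AGRN had 69.4, 74.2, 66.8 and 58.1 CPM in the day 28 animals, against 50.9, 61.2, 79.8 and 69.3 CPM in the day 3 animals (log2 fold change 0.039 ± 0.14, adjusted p = 0.928; 95% confidence interval -0.27 to 0.35). DAG1, which encodes dystroglycan, had 250.2 to 309.9 CPM on day 28 and 268 to 339 CPM on day 3, and DMD, which encodes dystrophin, had 121 to 161 CPM on day 28 and 106 to 145 CPM on day 3. UTRN, the related utrophin, had 100.4, 90.1, 89.9 and 104 CPM on day 28, against 73.6, 66.5, 88.1 and 71.0 CPM on day 3 (log2 fold change 0.36 ± 0.10, adjusted p = 0.273), and CAV3, the caveolin of muscle, had 91.0, 75.8, 76.9 and 62.9 CPM on day 28, against 102, 124, 95.2 and 100.9 CPM on day 3 (log2 fold change -0.46 ± 0.13, adjusted p = 0.273). These were the 2 of 25 tested members at an unadjusted p under 0.05, 4.0% in each direction (6.44% higher and 6.41% lower among all genes). Each was without overlap of the days (3.76% and 3.89% of all genes), and the list median was -0.036. Human AGRN protein given as a drug is not seen by this measurement, which reads pig RNA.

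Of the Hippo pathway, which restrains growth through YAP and which Agrin is known to touch in mouse, 5 of 27 genes were higher and 1 lower at an unadjusted p under 0.05 (median 0.12). These shares were 18.5% and 3.70%, against 6.44% and 6.41% of all genes. By sign alone the list was split, with 15 positive and 12 negative. AXL, a receptor kinase that is a YAP target, had 37.1, 39.4, 42.1 and 47.2 CPM on day 28, against 28.0, 26.1, 34.1 and 17.4 CPM on day 3 (log2 fold change 0.65 ± 0.18, adjusted p = 0.273). AMOTL1 (40.5 to 46.8 CPM on day 28 and 27.0 to 40.9 CPM on day 3), LIMD1 (30.6 to 40.3 CPM on day 28 and 26.5 to 29.8 CPM on day 3) and CRIM1 (27.9 to 38.5 CPM on day 28 and 15.4 to 32.1 CPM on day 3) lay on the same side, and the lower gene was CCN1, described above with animal 570. CCN2, read for contrast, had the lower mean on day 28 (55.2 against 81.0 CPM, log2 fold change -0.55 ± 0.36, adjusted p = 0.536). Wnt genes had 5 higher (16.1%) and 1 lower (3.23%) at an unadjusted p under 0.05 among 31 (median 0.11). The secreted antagonist SFRP4 had 4.15, 3.33, 6.08 and 9.20 CPM on day 28, against 2.29, 2.07, 3.14 and 3.39 CPM on day 3, the receptor FZD8 had 5.04 to 7.24 CPM on day 28 and 2.74 to 5.03 CPM on day 3, the ligand WNT5A had 3.07 to 6.20 CPM on day 28 and 1.94 to 3.33 CPM on day 3 and the co-receptor LRP6 had 18.6 to 20.5 CPM on day 28 and 9.62 to 19.5 CPM on day 3. Animal 577 was the lowest day 3 animal in AXL, AMOTL1, CRIM1, WNT5A and LRP6.

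Interferon-induced genes differed by animal within day 3. MX1, an antiviral GTPase, had 15.2, 13.1, 18.4 and 21.1 CPM in the day 28 animals, against 13.8, 19.01, 47.6 and 49.3 CPM in the day 3 animals, and IFI6 had 52.8, 45.8, 36.4 and 47.0 CPM on day 28, against 41.7, 46.4, 100.5 and 125 CPM on day 3. Animals 576 and 577 were 2 or more times as high as 570 and 572 in both genes. The list had 24 of 30 negative (median -0.19), and without animal 576 the median was -0.022. In saline animals the median was 0.60, but no member passed the test of the difference between treatments by edgeR. Fat cell genes were as uneven. ADIPOQ, the adipocyte hormone adiponectin, had 5.90, 1.15, 0.908 and 18.4 CPM on day 28, against 1.71, 0, 0 and 0.0808 CPM on day 3, and PLIN1, which coats fat droplets, had 2.68, 0.810, 0.474 and 10.7 CPM on day 28, against 0.853, 0, 0.145 and 0.242 CPM on day 3. Animal 548 carried most of the day 28 level, and the less specific FABP4 had 53.8 to 65.4 CPM on day 28 and 32.0 to 54.1 CPM on day 3. The summed level of adipocyte markers was 862 to 1066 CPM on day 28 and 609.6 to 1460.1 CPM on day 3, and how much fat each piece of tissue held was not tested.

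**Figure D4:**
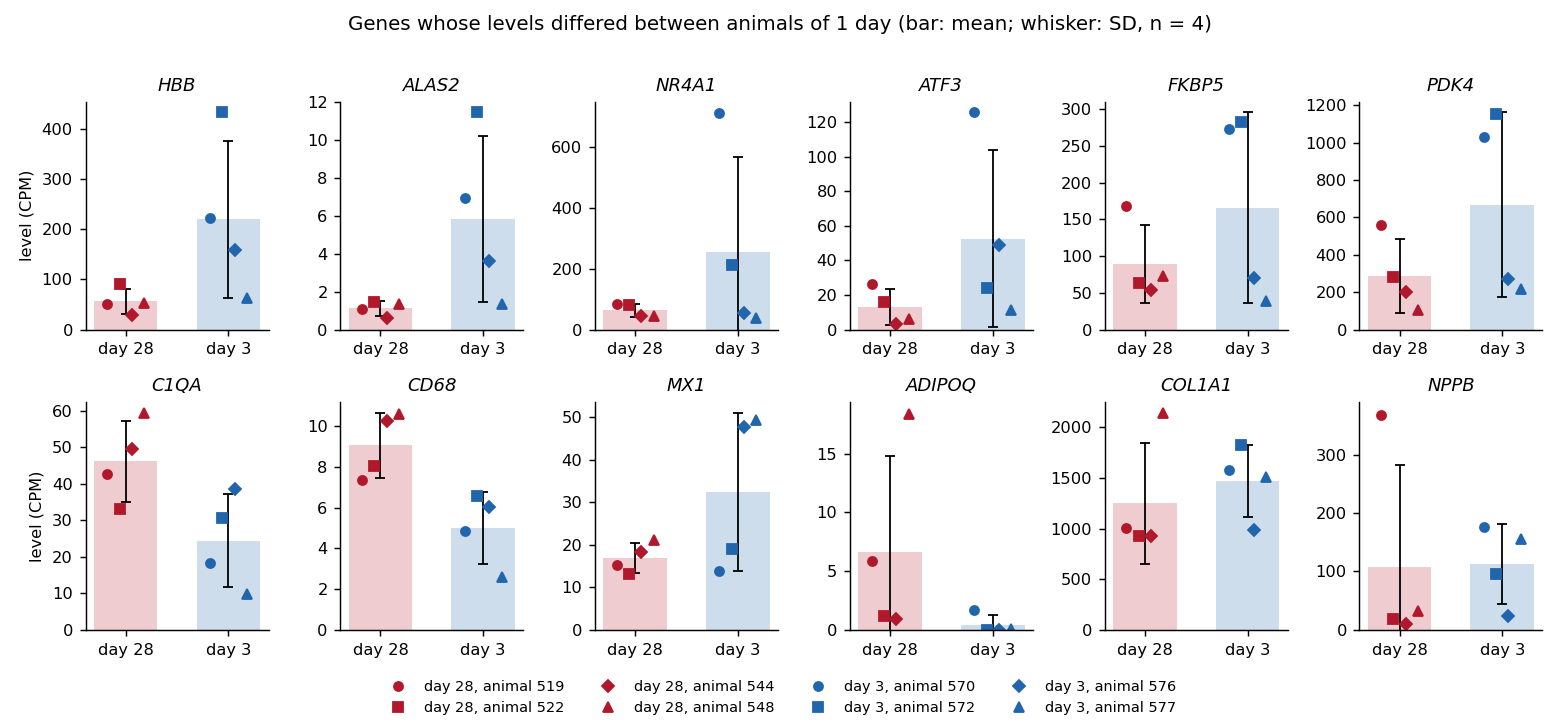
Levels in CPM (counts relative to library size) of 12 genes that differed between animals of the same day, in the remote zone of rhAgrin animals. Points are single animals, bars are means and whiskers are SD (n = 4, drawn down to 0 at most); HBB is highest in animal 572, NR4A1 in 570, ADIPOQ and COL1A1 in 548 and NPPB in 519.

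The same contrast in saline animals (3 against 3) also had no gene called by edgeR, with 1465 genes (10.2%) at an unadjusted p under 0.05 among 14324, and 38 called by DESeq2. The test of whether the day effect differed between rhAgrin and saline called none, an unadjusted p under 0.05 being reached by 538 genes (3.76%) where the threshold itself gives 716, and DESeq2 called 3. No animal is shared between the 2 treatments. Of 13626 genes 63.9% had the same sign in both, with median absolute fold changes of 0.16 in rhAgrin and 0.19 in saline animals. Of the 1752 at an unadjusted p under 0.05 in rhAgrin animals 79.4% had the same sign, with medians of 0.42 and 0.25. These 1752 were picked by their rhAgrin values, so the larger rhAgrin median among them follows from that choice.

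Averaged over both treatments in 1 fit of the 14 remote libraries, a contrast added after the data were seen, 4 genes passed the adjusted p and 1 was called. BEND6, a BEN domain protein, rose by 1.83 ± 0.27 on the log2 scale (adjusted p = 0.0386), with 10.2, 7.23, 4.30 and 4.12 CPM in the day 28 animals, against 1.93, 1.34, 2.85 and 3.19 CPM in the day 3 animals in rhAgrin hearts. LRRC4B, a synaptic adhesion protein, rose by 0.84 ± 0.12 and had 17.8 to 23.1 CPM on day 28 and 11.7 to 15.9 CPM on day 3 in rhAgrin hearts. MGMT, which removes alkyl groups from DNA, fell (-0.65 ± 0.089) and had 19.5 to 23.1 CPM on day 28 and 24.7 to 34.6 CPM on day 3, and TRAP1, a mitochondrial chaperone, fell (-0.45 ± 0.066) and had 67.5 to 73.1 CPM on day 28 and 73.1 to 90.1 CPM on day 3. The rhAgrin groups did not overlap in any of the 4 genes. Leaving out 1 library at a time gave 0 to 6 calls, so the count is not firm.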

How the data were processed

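Raw gene counts, whole numbers of reads per Ensembl gene, were deposited by the authors for each zone, treatment and day; per the methods they aligned reads to Sscrofa11 (Ensembl 103) with STAR 2.7.3a, removed duplicates by unique molecular identifier with Picard 2.22.4 and counted with htseq-count. The deposited normalized tables were not used. The remote columns of the rhAgrin day 28 and day 3 tables were joined by gene ID. The main test was edgeR 4.0.16 (R 4.3.3) with filterByExpr, TMM factors and the robust quasi-likelihood test on the 8 libraries, unpaired, with Benjamini-Hochberg adjustment over all genes tested. The study's limits were kept for a call (adjusted p below 0.05, log2 fold change of 1 or more in size, more than 30 reads in some library). The edgeR fits of the rhAgrin contrast on 8 and on 14 libraries were tested on simulated counts. Saline animals, the difference between treatments and the average were fitted on the 14 remote libraries. Alternatives were DESeq2 1.42.0, limma-voom (limma 3.58.1), other scaling, no filter, all 14 libraries in the fit, no mitochondrial genes, a term for Y-linked transcripts and leaving out each animal.

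The contrast and the gene lists were chosen with earlier results of these data known. The rule for named genes took only called genes and so named none, and the rule used in its place, the 12 smallest unadjusted p in each direction among named genes without overlap, the 6 largest differences in CPM in each direction and up to 4 members of a list at an unadjusted p under 0.05, with a few other members for contrast, was set after the values were seen. Gene positions and promoter windows came from RefSeq Sscrofa11.1; 1 window is not reported here. Libraries are from separate animals. Library depth was 21.7 to 31.9 M counts.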

Additional observations from a re-analysis of the deposited data

Results flagged for a closer look

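In groups of 4 animals a single level stood far from the other 3 in 16 of 290 groups (145 genes in both days), where chance gives about 1 in 20, or 14.5. On day 28, animal 519 had the highest FKBP5 (169 CPM, next 72.7) and NPPB (368, next 32.9) and the lowest RPSA (226, next 251). Animal 544 had the highest ENO1 (119, next 108) and LIMD1 (40.3, next 32.1). Animal 548 had the highest COL1A1 (2145, next 1008), PRELP (183, next 138) and SFRP2 (0.779, next 0.125).

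On day 3, animal 570 had the highest FOS (221 CPM, next 19.3) and ADIPOQ (1.71, next 0.0808), and animal 572 had the highest TNNI1 (14.6, next 6.51). Animal 576 had the lowest BMP1 (48.9, next 56.1) and NDUFA2 (49.7, next 57.1). Animal 577 had the lowest ERG (17.4, next 20.2) and the highest MACROH2A2 (24.5, next 17.0) and TRIM25 (14.4, next 12.01). The days did not overlap for RPSA, ENO1, LIMD1, PRELP, BMP1, NDUFA2, ERG, MACROH2A2 and TRIM25. Genes were named partly for lack of overlap or a small p in these same libraries, so this does not show how firm they are.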

How the results depend on the processing

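No gene was called for day 28 against day 3 in rhAgrin animals by edgeR with other scaling, no filter, 14 libraries or a Y-linked term, nor by limma-voom. DESeq2 called 58 there, 38 in saline animals, 3 for the difference between treatments and 76 for the average. Leaving out each animal gave 0 to 3 calls for rhAgrin, 0 to 1 for saline and 0 to 6 for the average (1 with all libraries), and by DESeq2, for rhAgrin, 69 without 519, 36 without 522, 41 without 544, 33 without 548, 52 without 570, 48 without 572, 152 without 576 and 49 without 577. Without animal 577 the 3 calls were TGM3 (-2.65), HIF3A (-1.26) and ENSSSCG00000002825 (-4.52), and gene list members past the adjusted p numbered 0 to 1, HIF3A being the 1. Within animals without Y-linked transcripts 1 gene was called, the mitochondrially encoded ATP8 (-6.38). DESeq2 put 54 of 145 named genes past the adjusted p. The sign reversed with library totals for DAG1 (0.029), MYH7 (0.042) and NPPB (0.019). It also reversed for CD163 without animal 519 (-0.23), 570 (-0.048) or 577 (-0.22), for AGRN without 522 (-0.012) or 570 (-0.063), for FOS without 570 (0.73), and for NPPB without 522 (0.28), 544 (0.31), 548 (0.23), 570 (0.23) or 577 (0.13); the cause was not tested. Leaving out each animal in turn, the fold change ranged over -0.23 to 0.51 for CD163, -0.063 to 0.15 for AGRN, -2.13 to 0.73 for FOS and -2.46 to 0.31 for NPPB. No paired analysis was possible because the days are different animals that share no number.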
